A study of Mus musculus with 14 samples.

Results

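The genes described here are 10 components of the transforming growth factor beta (TGF-beta) pathway: the ligand gene Tgfb1, the receptor genes Tgfbr1, Tgfbr2 and Tgfbr3, the signal transducers Smad2 and Smad3, and the inhibitor or feedback genes Smad7, Ski, Skil and Tgif1. They were chosen by name, as probe sets whose platform symbol is exactly one of these, from 18193 genes with a probe set of their own. Of their 22 probe sets the one with the highest mean over all arrays stood for each gene, and all 10 were among the 10916 genes bright enough to be tested. TGF-beta binds a type II receptor, which activates a type I receptor, and that receptor phosphorylates Smad2 and Smad3, which enter the nucleus with Smad4 and act on target genes. In CD4+ T cells the cytokine is known for inducing Foxp3 in regulatory T cells and, together with IL-6, for the Th17 fate. Smad7, Ski, Skil and Tgif1 restrain the pathway, and Smad7 and Skil are themselves known as its transcriptional targets.

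Mouse CD4+ T cells taken from the spleen and from peripheral and mesenteric lymph nodes were cultured in Th17, Treg or Th1 medium, without (control) or with acetate, a short chain fatty acid given as its sodium salt at 10 mM. The Th17 medium held IL-2 at 100 U/ml, TGF-beta1 at 5 ng/ml, IL-6 and TNF-a at 20 ng/ml, IL-1b, IL-23 and IL-21 at 10 ng/ml, and antibodies that block IL-4 and interferon gamma. The Treg medium held the same amounts of IL-2 and TGF-beta1, and the Th1 medium held that amount of IL-2, IL-12 at 10 ng/ml and an antibody against IL-4 but no added TGF-beta. The study used 3 control and 3 acetate arrays for Th17 cultures, and 2 of each for Treg as well as Th1 cultures, making 14. The labels give neither strain nor age. They do not tell whether the arrays within a group stem from different mice or wells, so every p-value reflects the spread among these arrays, which may be technical. The culture time is 5 days in the samples' protocols and 6 to 7 days in the series' text, and for treated Treg and treated Th1 samples the protocol reads acetone where the series' text has acetate. The Th1 medium also differs from the others in IL-12 and in blocking antibodies, and from the Th17 medium in IL-6, TNF-a, IL-1b, IL-23 and IL-21. An effect of TGF-beta cannot be told apart from these differences.

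Values are Affymetrix signals brought to a common distribution by quantile normalization and given as normalized signal, with comparisons on the scale log2(signal + 3). The deposited trimmed mean signal of an array ranged from 53.2 to 116, highest in Th17 control replicate 1, and arrays of one group correlated at 0.940 to 0.983. Il17a, the defining Th17 cytokine, had normalized signals of 598 to 5610 in Th17 arrays and of at most 15.8 in all others. Foxp3 was 283 to 381 in Treg control arrays but 52.2 to 66.0 in Treg acetate arrays, which overlapped the 55.3 to 108 of Th17 control arrays. Of the other Treg markers, Il2ra was lower in Treg control than in Treg acetate arrays, while Ikzf2, like Foxp3, was higher. Il2ra was 480 to 519 in Treg control, 1263 to 1647 in Treg acetate and 744 to 1232 in Th1 control arrays. Ikzf2 was 552 to 641 in Treg control and 263 to 333 in Treg acetate arrays. It was 101 to 115 in Th17 control and 98.6 to 169 in Th1 control arrays. Of the Th1 markers, Tbx21 was 243 to 387.5 in Th1 and 187 to 194 in Treg control arrays. Ifng was 887 to 2987 and 1092 to 1244 there, and Cxcr3 74.9 to 93.9 and 437 to 460. The summed signal of 5 CD4 T cell genes lay between 5530 and 11390 in every array. The 18S ribosomal RNA control ran from 2809 to 4149 in Th17 arrays and from 298 to 1576 in Th1 arrays; it was 3134 in Treg control replicate 1 and 507 to 816 in the other Treg arrays, and its part in the results was not tested. In bulk RNA, fewer cells of a type and less RNA per cell cannot be told apart.

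Throughout, an adjusted p is limma's with Benjamini-Hochberg adjustment over the 10916 genes, and a gene is called where it is under 0.05. Comparing media, 5 of the 10 genes were called between untreated TGF-beta media and Th1 medium, 4 higher and 1 lower, where 3.67% of all tested genes were called. Skil, Tgfbr2, Tgfbr1 and Tgif1 were higher in the media with TGF-beta, and Tgfbr3 was lower. Tgfb1, Smad2, Smad3, Smad7 and Ski were not called. The median difference was 0.62 over the 10 genes and -0.0045 over all tested genes. Under acetate 2 of the 10 were called, Skil and Tgfbr2, both higher, against 3.98% of all genes. Comparisons of Th17 and of Treg with Th1 cultures share the Th1 arrays, so their values are given side by side below rather than as separate evidence.

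**Figure D1:**
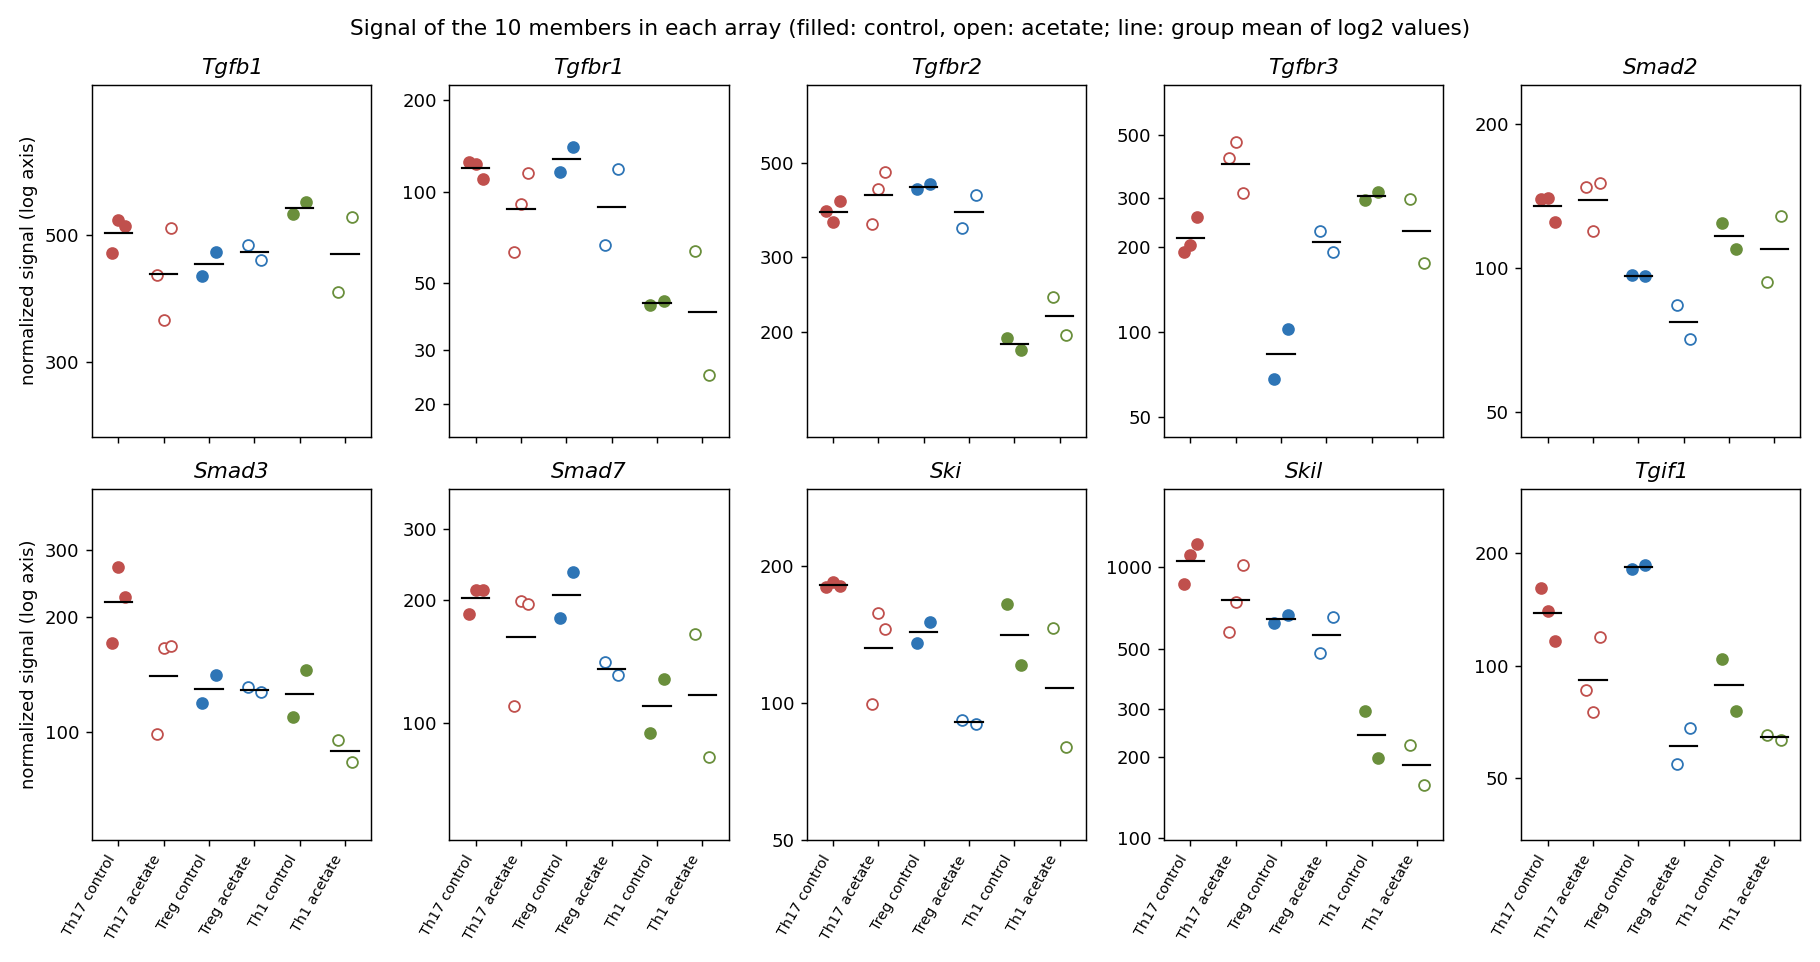
Normalized signal (log axis, 1 panel per gene, each with its own range) of the 10 genes in each of the 14 arrays; filled points are control and open points acetate arrays, and lines are group means of log2 values. Skil, Tgfbr1 and Tgfbr2 show lower points in Th1 than in Th17 and Treg control cultures, and Tgif1 falls from 184 to 61.2 in Treg cultures with acetate.

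Tgfb1, the ligand gene itself, varied least across the 6 groups, by 1.30-fold from the highest group mean to the lowest. Normalized signals of Tgfb1 were 464, 531 and 519 in Th17, 424 and 467 in Treg, and 543 and 572 in Th1 control arrays. With acetate they were 426, 355 and 514 in Th17, 480.4 and 452 in Treg, and 398 and 538 in Th1 arrays. Both Th1 control arrays were above all other arrays, and no comparison was called. The control difference between the media with TGF-beta and Th1 was -0.23 ± 0.16 (adjusted p 0.484), or 0.19 (adjusted p 0.630) on signals as deposited, and the acetate differences ranged from -0.27 in Th1 to 0.07 in Treg cultures.

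Tgfbr1 encodes the type I receptor kinase that phosphorylates Smad2 and Smad3. Control arrays had normalized signals of 125, 124 and 110.1 in Th17, 116 and 141 in Treg, and 42.3 and 43.6 in Th1. With acetate they were 63.5, 91.3 and 115 in Th17, 66.9 and 119 in Treg, and 63.6 and 24.95 in Th1 arrays. The control groups with TGF-beta did not overlap Th1, while among acetate arrays the lowest Th17 value was no higher than the higher Th1 value. The control difference was 1.46 ± 0.32 (2.76-fold, adjusted p 0.0231), and the acetate difference of 1.08 ± 0.32 missed the threshold (adjusted p 0.0806). The control call was lost without Th17 control replicate 1, either Treg control array or either Th1 control array (differences 1.40 to 1.53, adjusted p 0.0523 to 0.135). The acetate difference passed without Th17 acetate replicate 1 or Th1 acetate replicate 1, at adjusted p of 0.0328 and 0.0068. Averaging the probe sets gave a control difference of 0.30 (adjusted p 0.520). With acetate Tgfbr1 differed by -0.44 ± 0.31 (Th17), -0.50 ± 0.38 (Treg) and -0.09 ± 0.38 (Th1), and none was called. The mean of -0.34 ± 0.21 (adjusted p 0.224) passed only without Th1 acetate replicate 1 (-0.55, adjusted p 0.0285).

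The type II receptor gene Tgfbr2 encodes the subunit that binds the ligand first. Normalized signals of Tgfbr2 were 385, 362 and 407 in Th17, 434 and 446 in Treg, and 194 and 182 in Th1 control arrays. In acetate cultures they were 359, 433 and 477 in Th17, 351 and 419 in Treg, and 242 and 197 in Th1 arrays. The lowest array from a medium with TGF-beta was above the highest Th1 array, with or without acetate. The control difference was 1.12 ± 0.15 (2.17-fold, adjusted p 0.00146) and the acetate difference 0.87 ± 0.15 (1.83-fold, adjusted p 0.00664). Th17 and Treg controls exceeded Th1 by 1.02 ± 0.16 and 1.22 ± 0.18. The control calls remained without any single array, but the acetate call was lost without Th1 acetate replicate 2 (difference 0.72, adjusted p 0.122) and on signals as deposited (0.82, adjusted p 0.129). The other Tgfbr2 probe sets, with group means of 1.5 to 23.5, gave -0.45 and -0.59, neither of them called, and averaging all probe sets brought the control value to 0.02 (adjusted p 0.977). No acetate difference was called, with values of 0.13 ± 0.15 (Th17), -0.20 ± 0.18 (Treg) and 0.21 ± 0.18 (Th1).

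Promoter sequence was available for 6 of the 10 genes in RefSeq (GRCm38.p6). The windows of 3 genes that were higher in the media with TGF-beta are shown, as 250 bases before to 50 after the most upstream listed start, because Smad3 and Smad4 bind the short element CAGAC and its reverse complement GTCTG, which are in capitals. The Tgfbr1 window is chr4:47352972-47353271 on the plus strand, that of Tgfbr2 is chr9:116175314-116175613 on the minus strand, and that of Tgif1 is chr17:70853483-70853782 on the minus strand.
Tgfbr1: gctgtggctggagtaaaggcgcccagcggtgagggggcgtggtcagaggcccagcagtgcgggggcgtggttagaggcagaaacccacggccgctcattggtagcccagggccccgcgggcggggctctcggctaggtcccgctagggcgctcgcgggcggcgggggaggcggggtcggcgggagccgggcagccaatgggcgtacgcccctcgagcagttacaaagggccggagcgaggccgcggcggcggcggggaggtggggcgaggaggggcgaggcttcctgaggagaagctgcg
Tgfbr2: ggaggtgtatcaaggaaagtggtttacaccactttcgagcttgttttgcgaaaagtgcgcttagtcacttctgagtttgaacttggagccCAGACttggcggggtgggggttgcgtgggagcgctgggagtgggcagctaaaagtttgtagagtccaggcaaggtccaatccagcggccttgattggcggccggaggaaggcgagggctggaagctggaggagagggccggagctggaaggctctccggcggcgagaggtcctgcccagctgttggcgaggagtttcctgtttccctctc
Tgif1: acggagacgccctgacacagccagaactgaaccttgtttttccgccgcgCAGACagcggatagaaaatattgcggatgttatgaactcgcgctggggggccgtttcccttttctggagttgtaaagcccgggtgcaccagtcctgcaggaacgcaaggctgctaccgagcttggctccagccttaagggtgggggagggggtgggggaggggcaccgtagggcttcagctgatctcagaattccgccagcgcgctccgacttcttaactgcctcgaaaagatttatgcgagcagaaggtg
The element stood once in the Tgfbr2 window, beginning 160 bases before the start, once in the Tgif1 window, beginning 201 bases before it, and not in the Tgfbr1 window. Of all 32851 promoter windows of this length in RefSeq 49.6% hold it on either strand, and it was in 5 of all 11 listed windows of these genes and in 2 of the 6 most upstream ones. The further windows with it are a second Tgfbr1 window, 203 bases before that start, and 2 downstream Tgif1 windows. The windows of Tgfb1, Smad3 and Ski had none. CG pairs numbered 34 in the Tgfbr1 window, 15 in that of Tgfbr2 and 20 in that of Tgif1, against a median of 7 over all windows, and 59 in that of Ski. The windows of Tgfbr3, Skil, Smad2 and Smad7 were not used here.

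Tgfbr3 encodes betaglycan, a co-receptor that presents TGF-beta to the type II receptor, and among control cultures it differed in the opposite direction from Tgfbr1 and Tgfbr2. Among control arrays its normalized signals were 193, 205 and 255 in Th17, 68.0 and 102 in Treg, and 294 and 313 in Th1. Both Treg control arrays were below all other arrays. Treg controls were lower than Th1 controls by a log2 difference of -1.83 ± 0.28 (adjusted p 0.00296) and Th17 controls were higher than Treg controls by 1.34 ± 0.25 (adjusted p 0.00414). The Th17 to Th1 difference was -0.48 ± 0.25 (adjusted p 0.281), and turned to 0.22 (adjusted p 0.585) on signals as deposited. The mean of both media against Th1 was -1.16 ± 0.23 (adjusted p 0.0175). That last call was lost without Treg control replicate 1 or either Th1 control array (adjusted p 0.0555 to 0.125), and was -0.66 (adjusted p 0.151) on signals as deposited and -0.93 (adjusted p 0.0737) with median scaling. The Th17 to Treg call was lost without Treg control replicate 1 (1.06, adjusted p 0.0808).

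With acetate Tgfbr3 rose in both media that hold TGF-beta. Its normalized signals were 415, 473 and 313 in Th17 and 228 and 193 in Treg acetate arrays, above all control arrays of the same medium. In Th1 acetate arrays they were 297 and 175, which overlapped the Th1 controls. The acetate difference was 0.86 ± 0.23 in Th17 (adjusted p 0.0179), 1.30 ± 0.28 in Treg (2.46-fold, adjusted p 0.00944) and -0.40 ± 0.28 in Th1 (adjusted p 0.427). A limma F test of whether the 3 acetate differences are unequal gave an adjusted p of 0.0975 (unadjusted 0.00204), and 0.0201 without Th1 acetate replicate 1. The Th17 call was lost without Th17 control replicate 1 or 2 or Th17 acetate replicate 2 (0.73 to 0.82, adjusted p 0.0625 to 0.0753), and the Treg call without Treg control replicate 1 or Treg acetate replicate 1 (1.02 and 1.18, adjusted p 0.107 and 0.0934). The mean over the 3 media was 0.59 ± 0.15 (adjusted p 0.0101), and 0.48 (adjusted p 0.0644) on signals as deposited. On those signals the Th17 value was 0.52 (adjusted p 0.190) and the Treg value 1.08 (adjusted p 0.0686), and with median scaling the Th17 value was 0.68 (adjusted p 0.0729). Averaging probe sets gave 0.34 (adjusted p 0.295) for acetate in Th17 and 0.77 (adjusted p 0.118) in Th1, and -0.79 (adjusted p 0.121) for untreated Treg against Th1 and -0.15 (adjusted p 0.800) for both media.

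**Figure D2:**
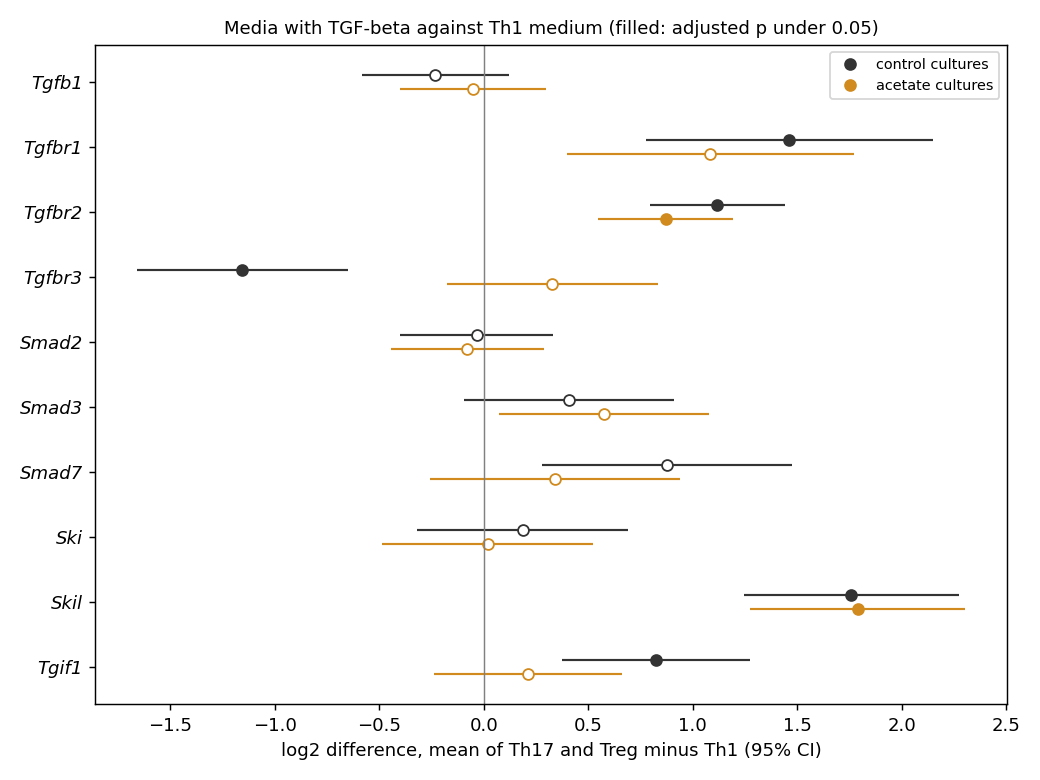
log2 difference between the mean of Th17 and Treg cultures and Th1 cultures (x axis) for the 10 genes, in control (black) and acetate (orange) cultures, with 95% confidence intervals and filled points for adjusted p under 0.05. Skil and Tgfbr2 are called in both, and Tgfbr3 moves from -1.16 in control to 0.33 in acetate cultures.

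Smad2, the other receptor-activated transducer, was not called in any comparison. In control arrays its normalized signals were 139.6, 139.7 and 125 in Th17, 96.5 and 96.2 in Treg, and 124 and 109.7 in Th1. With acetate they were 147, 119 and 151 in Th17, 83.8 and 71.2 in Treg, and 93.5 and 128 in Th1 arrays. Th17 control arrays were above both Treg control arrays, with a difference of 0.47 ± 0.18 (adjusted p 0.125) that passed on signals as deposited (0.91, adjusted p 0.0458) and with median scaling (0.70, adjusted p 0.0493). The Th17 to Th1 difference of 0.20 ± 0.18 (adjusted p 0.559) was 0.88 (adjusted p 0.0366) on signals as deposited. The 95% confidence interval of the control difference between the media with TGF-beta and Th1 ran from -0.40 to 0.33.

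Smad3, a transducer with a DNA-binding domain, was highest in Th17 control arrays. Its normalized signals there were 171, 270.3 and 226, against 119 and 142 in Treg and 109.5 and 145 in Th1 control arrays, and no Th17 control array overlapped those. The Th17 to Th1 difference was 0.78 ± 0.25 (adjusted p 0.0861) and the Th17 to Treg difference 0.74 ± 0.25 (adjusted p 0.0786). On signals as deposited they were 1.46 (adjusted p 0.00282) and 1.18 (adjusted p 0.0121), with median scaling 1.09 (adjusted p 0.0103) and 0.97 (adjusted p 0.0130), and without Th17 acetate replicate 1 they passed at 0.78 (adjusted p 0.0334) and 0.74 (adjusted p 0.0307). In acetate arrays Smad3 was 99.0, 166 and 168 in Th17, 131 and 127 in Treg, and 95.4 and 83.6 in Th1. All acetate arrays of Th17 and Treg were above the Th1 acetate arrays. The mean acetate difference over the 3 media was -0.37 ± 0.15 (adjusted p 0.0749), which passed with median scaling (-0.42, adjusted p 0.0325) and without Th17 control replicate 1 (-0.43, adjusted p 0.0471). The acetate difference in Th17 was -0.63 ± 0.23 (adjusted p 0.0659), and it passed on signals as deposited (-0.99, adjusted p 0.0162), with median scaling (-0.84, adjusted p 0.0121) and without Th17 control replicate 1 (-0.80, adjusted p 0.0482). In acetate cultures the mean of Th17 and Treg against Th1 was 0.58 ± 0.23 (adjusted p 0.191), and 0.70 (adjusted p 0.0438) without Th17 acetate replicate 1.

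Smad7, the inhibitory Smad that recruits ubiquitin ligases to the type I receptor, had normalized signals of 185, 212 and 212 in Th17, 181 and 235 in Treg, and 94.3 and 128 in Th1 control arrays. All arrays of the control media with TGF-beta lay above both Th1 control arrays. Their mean exceeded Th1 by 0.88 ± 0.28, which did not pass (adjusted p 0.108); it passed on signals as deposited (1.31, adjusted p 0.0199), with median scaling (1.05, adjusted p 0.0488), and without Th17 acetate replicate 1 or either Th1 acetate array (adjusted p 0.0472 to 0.0497). The acetate values were 109.8, 199 and 196 in Th17, 141 and 131 in Treg, and 165 and 82.4 in Th1 arrays, where the groups overlapped and the difference was 0.34 ± 0.28 (adjusted p 0.529). For untreated Th17 against Th1 alone the difference was 0.86 ± 0.30 (adjusted p 0.109), and 1.55 (adjusted p 0.00537) as deposited and 1.18 (adjusted p 0.0249) with median scaling. The acetate difference was -0.31 ± 0.27 in Th17 (adjusted p 0.447), -0.59 ± 0.33 in Treg (adjusted p 0.281) and 0.08 ± 0.33 in Th1 (adjusted p 0.914).

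Ski, the corepressor related to Skil, was lower with acetate on average over the 3 media. Control arrays gave Ski normalized signals of 179.8, 185 and 181 in Th17, 135 and 151 in Treg, and 165 and 121 in Th1. In acetate arrays they were 99.5, 158 and 145 in Th17, 91.8 and 90.1 in Treg, and 146 and 80.0 in Th1. Acetate arrays of Th17 and Treg were all below their controls, and those of Th1 overlapped them. The mean difference was -0.49 ± 0.15 (adjusted p 0.0248), while the single values of -0.46 in Th17, -0.64 in Treg and -0.38 in Th1 did not pass (adjusted p 0.173, 0.158 and 0.459). The call was lost without Treg control replicate 2, either Treg acetate array, Th1 control replicate 1 or Th1 acetate replicate 2 (-0.49 to -0.35, adjusted p 0.0555 to 0.0694). Averaging the probe sets gave -0.30 (adjusted p 0.0873). The second Ski probe set, with group means of 49.9 to 134, gave -0.11 (adjusted p 0.583), and a Th17 to Th1 difference of 1.07 (adjusted p 0.0164) where the one used gave 0.36 (adjusted p 0.439), or 1.03 (adjusted p 0.0321) on signals as deposited.

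Skil, which encodes the Smad corepressor SnoN, had the largest difference of the 10 genes between untreated TGF-beta media and Th1 medium. Normalized signals of Skil were 866, 1106 and 1210 in the Th17 control arrays, 623 and 662 in the Treg control arrays, and 294 and 197 in the Th1 control arrays. With acetate they were 575, 740 and 1018 in Th17, 483 and 652 in Treg, and 220.1 and 158 in Th1 arrays. Every array from a medium with TGF-beta lay above every Th1 array. Among control cultures the mean of Th17 and Treg exceeded Th1 by 1.76 ± 0.24 on the log2 scale (SE), or 3.38-fold, with an adjusted p of 0.00152. Among acetate cultures the difference was 1.79 ± 0.24, with an adjusted p of 0.00148. Both calls remained when any one of the 14 arrays was left out, and the control call missed the threshold when all probe sets of a gene were averaged (difference 1.06, adjusted p 0.0521). The other Skil probe set, with group means of 14.6 to 37.5, was not called in either comparison. It gave 0.35 (adjusted p 0.65) in control and 0.81 (adjusted p 0.2275) in acetate cultures. The acetate difference was -0.47 ± 0.23 for Th17, -0.19 ± 0.28 for Treg, and -0.37 ± 0.28 for Th1 (adjusted p 0.166, 0.722 and 0.484). Their mean of -0.34 ± 0.15 had an adjusted p of 0.105, and passed without Th17 acetate replicate 3 (-0.41, adjusted p 0.0420).

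Tgif1, a homeodomain corepressor that binds activated Smad2 and Smad3, showed the largest acetate difference of the 10 genes. Its normalized signals fell from 182 and 186 in Treg control arrays to 54.4 and 68.1 in Treg acetate arrays. They were 161, 140.4 and 117 in Th17 control arrays, 86.1, 75.1 and 119 in Th17 acetate arrays, 104 and 75.5 in Th1 control arrays, and 65.1 and 63.3 in Th1 acetate arrays. Control and acetate arrays were separate in Treg and Th1 cultures, while in Th17 cultures the highest acetate array was above the lowest control. In Treg cultures the difference was -1.55 ± 0.25 (adjusted p 0.00206), and it remained called in all 14 fits with an array left out. In Th17 it was -0.58 ± 0.20 (adjusted p 0.0600) and in Th1 -0.45 ± 0.25 (adjusted p 0.310). The mean over the 3 media was -0.86 ± 0.13 (adjusted p 4.63e-04), and the F test gave an adjusted p of 0.209 (unadjusted 0.0128), so the 3 differences were not shown to be unequal. The Th17 value passed on signals as deposited (-0.95, adjusted p 0.0320), with median scaling (-0.80, adjusted p 0.0190), with a filter at the 60th percentile (adjusted p 0.0499), and without Th17 acetate replicate 3 or either Th1 control array (-0.76 to -0.57, adjusted p 0.0217 to 0.04998).

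Between media, Tgif1 was higher in Treg than in Th1 control cultures by 1.03 ± 0.25 (adjusted p 0.0321), and the mean of both TGF-beta media was higher by 0.82 ± 0.21 (adjusted p 0.0469). With acetate that difference was 0.21 ± 0.21 (adjusted p 0.614), and the Treg acetate arrays lay on both sides of the Th1 acetate arrays. The Th17 to Th1 difference among controls was 0.62 ± 0.23 (adjusted p 0.122), and passed on signals as deposited (1.29, adjusted p 0.0118) and with median scaling (0.92, adjusted p 0.0324). The Treg call was lost without either Treg control array or Th1 control replicate 2 (0.80 to 1.05, adjusted p 0.154 to 0.176), and on signals as deposited (1.22, adjusted p 0.0894). The call on the mean was lost in 8 of 14 fits with an array left out, namely any one Th17 control array, any one Treg array or Th1 control replicate 2 (0.60 to 0.88, adjusted p 0.0554 to 0.349), and when genes below the filter were also tested (adjusted p 0.0710). Averaging the probe sets of other genes, which leaves the only Tgif1 probe set as it is, put it at an adjusted p of 0.0557.

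Between acetate and control arrays 1 of the 10 genes was called in Th17 cultures (20.3% of all tested genes were called there), 2 in Treg (12.5%), none in Th1 (4.02%) and 3 for the mean of the 3 media (31.8%). Of the last, Tgfbr3 was higher and Tgif1 and Ski were lower. None passed the F test in limma (0.797% of all genes did), and 2, Tgfbr3 and Tgif1, had an unadjusted p under 0.05. In Th1 cultures none of the 10 had an unadjusted p under 0.05 either. Among untreated cultures 3 differed in Th17 from Th1 (6.6%), 5 in Treg from Th1 (5%) and 1 in Th17 from Treg (11.3%). Skil was called with 2.11 ± 0.26 in Th17 and 1.41 ± 0.28 in Treg against Th1, Tgfbr1 with 1.41 ± 0.34 and 1.51 ± 0.38. The Treg call of Skil was lost without either Treg control array or Th1 control replicate 2 (1.13 to 1.46, adjusted p 0.0812 to 0.108). The Tgfbr1 call of Th17 against Th1 was lost when any one Th17 or Th1 control array was left out (adjusted p 0.0673 to 0.154), and that of Treg against Th1 when any one of the 7 control arrays was (adjusted p 0.0567 to 0.228). Skil was 0.71 ± 0.26 higher in Th17 than in Treg controls (adjusted p 0.0982), which passed on signals as deposited (1.198, adjusted p 0.0113) and with median scaling (0.99, adjusted p 0.0161).

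**Figure D3:**
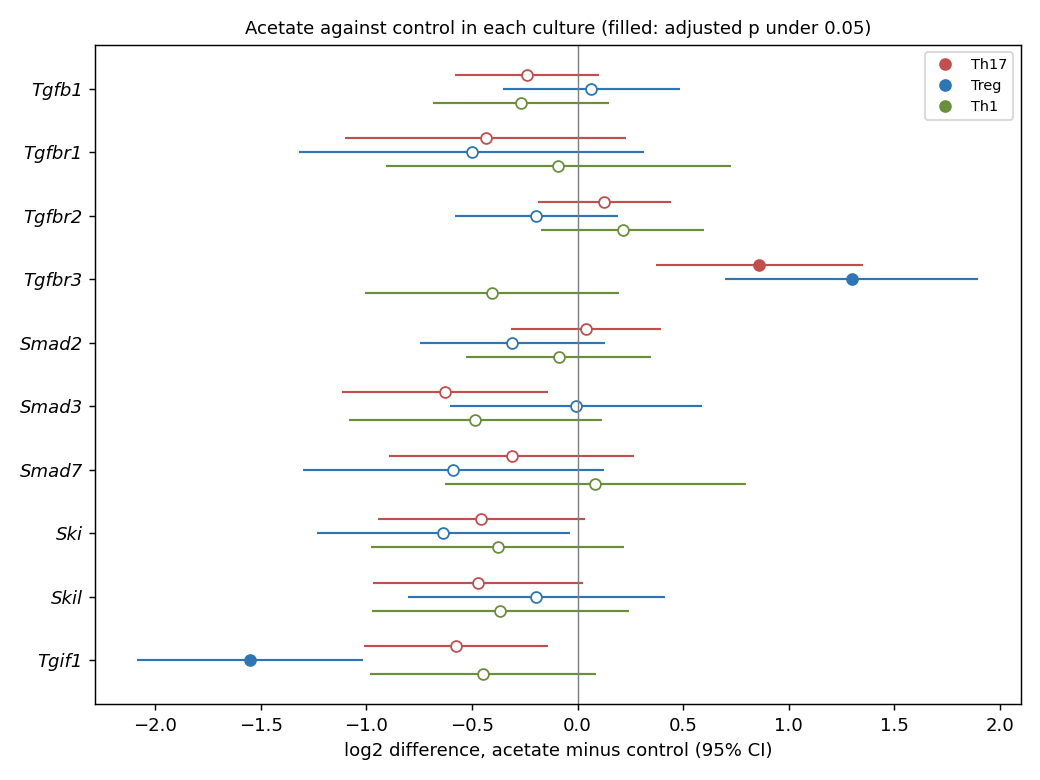
log2 difference between acetate and control arrays (x axis) of the 10 genes in Th17 (red), Treg (blue) and Th1 (green) cultures, with 95% confidence intervals and filled points for adjusted p under 0.05. Tgfbr3 is called upward in Th17 (0.86) and Treg (1.30), and Tgif1 downward in Treg (-1.55).

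Other genes of the pathway were followed in 5 lists. Of 9 tested genes known to rise with TGF-beta, 5 were higher and 0 lower in untreated TGF-beta media than in Th1 medium, where 3.67% of all genes were called. The list median was 1.44 against -0.0045 over all genes. The 5 were Gpr15, a homing receptor of the large intestine (4.82 ± 0.40), Itgae, the integrin chain CD103 (3.73 ± 0.66), Foxp3 (3.40 ± 0.31), the Smad inhibitor Ldlrad4 (1.98 ± 0.26) and Pmepa1, which sequesters Smads (1.44 ± 0.28). Gpr15 and Foxp3 were called in every fit in which they were tested. Itgae was lost without Th1 control replicate 1 and Pmepa1 without Th1 control replicate 2. With acetate 3 of the 9 were called in that comparison (3.98% of all genes were), all higher: Gpr15 (3.03 ± 0.40), Ldlrad4 (1.86 ± 0.26) and Pmepa1 (1.53 ± 0.28). The Pmepa1 call was lost without Th1 acetate replicate 2. Averaging probe sets ended the Ldlrad4 call in both comparisons, at 0.83 in untreated and 0.79 in acetate cultures.

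For acetate against control, as the mean of the 3 media, 3 of these 9 genes were lower and none was higher, a share near the 31.8% called over all genes: Itgae (-1.95 ± 0.42), Foxp3 (-1.58 ± 0.20) and Tsc22d1 (-0.76 ± 0.14). Foxp3 fell in Th17 (-2.34 ± 0.30) and in Treg cultures (-2.43 ± 0.37). Pmepa1 and Ldlrad4, the inhibitors of Smad signalling, were not called. Among 9 tested receptors and co-receptors 3 were higher and 0 lower in untreated TGF-beta media than in Th1 medium: Nrp1, a co-receptor that binds TGF-beta (1.83 ± 0.27), Acvr2a, an activin receptor (1.30 ± 0.27), and Bmpr2, the BMP type II receptor (1.10 ± 0.23). The list median was 0.87, and 3.67% of all tested genes were called in that comparison. The 2 media differed in this. In Th17 against Th1 controls 5 of the 9 were higher and 0 lower (list median 1.06, 6.6% of all genes called). In Treg against Th1 controls 2 were higher and 0 lower (median -0.13, 5% of all genes). With acetate Nrp1 (-1.29 ± 0.17) and Acvr2a (-0.98 ± 0.18) were lower for the mean of the 3 media and none of the 9 was higher, with a list median of 0.15. That share was below the 31.8% called over all genes. Nrp1 was called lower in Th17 (-2.31) and Treg cultures (-1.47), the latter lost without Treg control replicate 2 or Treg acetate replicate 1. In Th1 cultures its mean signal was 37.45 in control and 35.26 in acetate arrays. The Acvr2a media call was lost without Th17 control replicate 3, either Treg control array or Th1 control replicate 2, and the Bmpr2 call without either Treg control array or Th1 control replicate 2. Averaging probe sets ended both of these calls, and testing with no filter ended that of Acvr2a.

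Among 21 tested Smads and Smad partners, 0 were higher and 1 lower in untreated TGF-beta media, where 3.67% of all genes were called. The 1 was Fkbp1a, which binds the type I receptor (-0.73 ± 0.18). That call was lost in 9 of the 14 fits with an array left out, namely Th17 control replicate 1 or 2, Th17 acetate replicate 2, any one Treg array or either Th1 control array. The Fkbp1a call was also lost on signals as deposited, with no filter and with probe sets averaged. With acetate 1 was higher and 8 were lower for the mean of the 3 media, where 31.8% of all genes were called, with a list median of -0.15 against 0.03 over all genes. The largest were Crebbp, the acetyltransferase that Smads recruit (-1.33 ± 0.11), Runx1 (-0.90 ± 0.26), Smad5 (-0.88 ± 0.21), the ubiquitin ligase Smurf1 (-0.68 ± 0.12) and, upward, the ligase Wwp1 (0.58 ± 0.12). The Wwp1 call was lost on signals as deposited. The Runx1 call was lost without Treg control replicate 1, Treg acetate replicate 1 or Th1 control replicate 2, and with probe sets averaged. Crebbp was lower in each medium, by -1.44 in Th17, -1.69 in Treg and -0.85 in Th1, with adjusted p of 1.67e-04, 4.41e-04 and 0.0357. Smad4, the partner of Smad2 and Smad3, was named after its value was seen and changed by -0.56 ± 0.18 (adjusted p 0.0334), a call lost without Th17 control replicate 2, either Treg control array, Treg acetate replicate 1, Th1 control replicate 2 or Th1 acetate replicate 2. Averaging probe sets also ended the Smad4 call.

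None of 10 tested genes of ligands and ligand activation was called between untreated TGF-beta media and Th1 medium (3.67% of all genes were), with a list median of -0.25. With acetate 3 of them were higher for the mean of the 3 media, a share no larger than the 31.8% called over all genes: Lefty1 (1.40 ± 0.39), Bmp7 (1.32 ± 0.22) and Ltbp3, a latent TGF-beta binding protein (0.77 ± 0.19), and none was lower. The Ltbp3 call was lost on signals as deposited and when probe sets were averaged. By medium, Ltbp3 was called higher in Th17 (0.99) and Treg cultures (1.40). Those calls remained in 9 and 10 of the 14 fits with an array left out. In Th1 cultures its mean signal was 77.58 in control and 77.56 in acetate arrays. Signals of the other 2 genes were low, where the filter lay at a signal of 9.10. Bmp7 was 2.0 to 4.0 in Th17 and 8.29 to 8.46 in Th1 control arrays. Lefty1 was 13.1 to 21.2 in Th17 and 2.34 to 8.94 in Th1 control arrays. Of the 12 tested genes known to be held down by TGF-beta in T cells, 2 were higher and 2 lower in untreated TGF-beta media, and 8 were not called. Of all tested genes 3.67% were called there. Il2 (3.37 ± 0.79) and the granzyme Gzma (2.78 ± 0.39) were higher, and Fasl (-2.29 ± 0.29) and the IL-12 receptor chain Il12rb2 (-2.04 ± 0.32) lower, than in Th1 medium. The list median was -0.31, but the 2 media differed. Of the 12 genes, 1 was higher and 5 lower in Th17 than in Th1 controls (list median -1.29, 6.6% of all genes called). In Treg against Th1 controls 3 were higher and 1 lower (median 0.80, 5% of all genes). Between Th17 and Treg controls 1 was higher and 8 were lower in Th17 (median -2.48, 11.3% of all genes). Normalized signals of Il2 were 761 to 1419 in Th17, 68.4 to 108 in Treg and 4.38 to 127 in Th1 control arrays, so the Th1 arrays lay on both sides of the Treg arrays. Its call was lost in 7 of the 14 fits with an array left out, namely Th17 control replicate 1 or 3, any one Treg array or Th1 control replicate 2. With acetate 3 of the 12 were higher for the mean of the 3 media, Gzma (2.16 ± 0.25), Prf1 (1.77 ± 0.34) and Gzmb (1.12 ± 0.27), and 1 was lower, Gata3 (-1.22 ± 0.24). These 4 of 12 are a share near the 31.8% called over all genes.

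**Figure D4:**
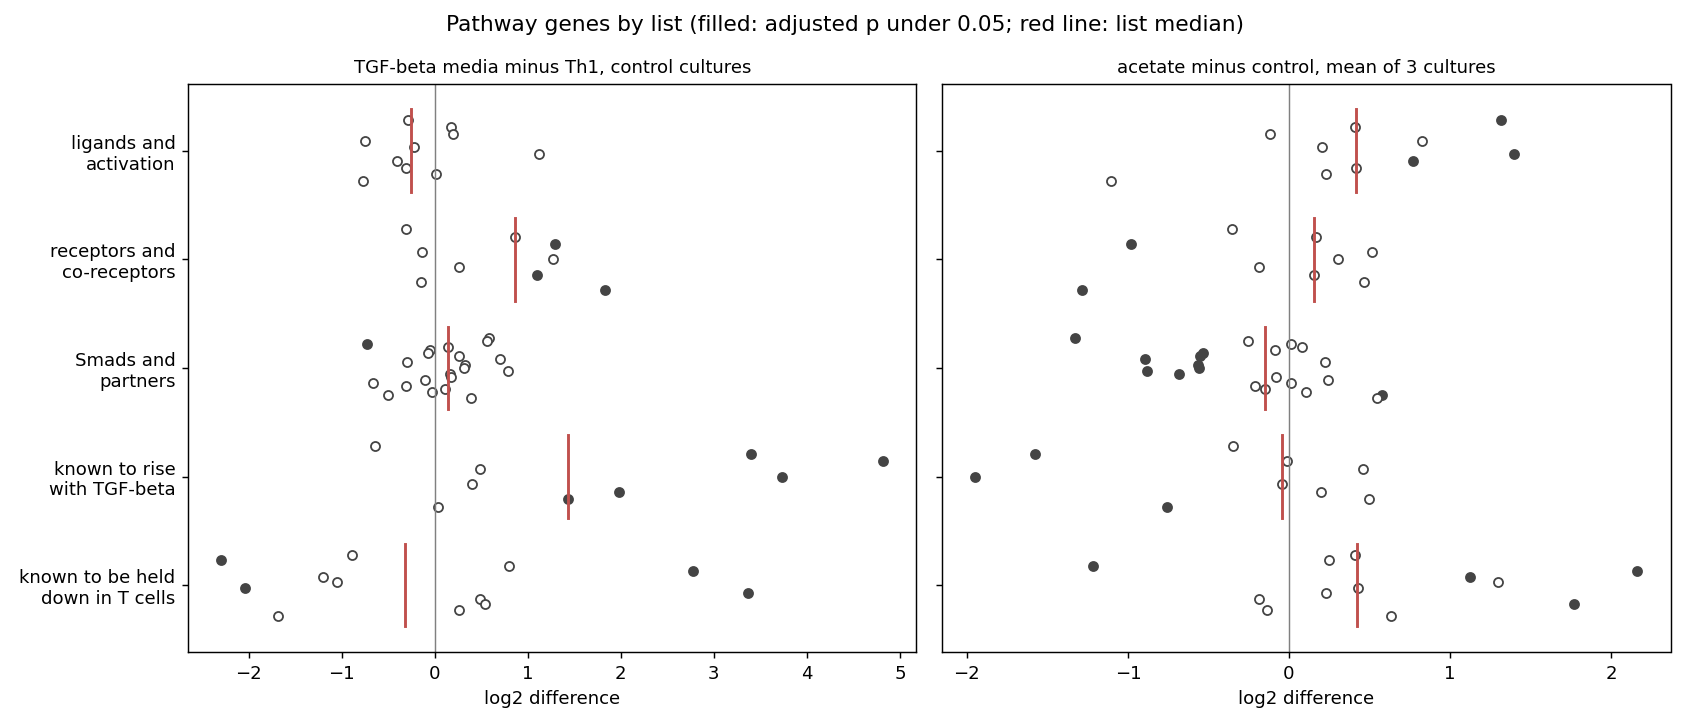
log2 difference (x axis) of every tested gene of the 5 pathway lists, for untreated media with TGF-beta against Th1 medium (left) and for acetate against control over the 3 media (right); filled points have an adjusted p under 0.05 and red lines are list medians. Genes known to rise with TGF-beta have a median of 1.44 at left, and 8 of the 9 called Smads and partners lie below 0 at right.

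Marker genes of other cells moved with some of these comparisons. In untreated TGF-beta media 1 of 2 CD8 T cell genes (Cd8a), the 1 tested NK cell gene (Klrd1) and 1 of 2 tested mast cell genes (Kit) were higher than in Th1 medium. Of all tested genes 3.67% were called there. Summed CD8 T cell signal was 51.6 to 179 in Th17, 196 to 217 in Treg and 36.6 to 62.7 in Th1 control arrays. The corresponding sums were 822 to 1263, 1182 to 1668 and 293 to 295 for NK cell genes, and 71.0 to 102, 57.9 to 130 and 11.5 to 30.5 for mast cell genes. Ncr1 of the NK list and Fcer1a of the mast cell list were below the filter, as were Cd79a, Ms4a1 and Cd22 of the B cell list and all 4 fibroblast genes. With acetate Cd8b1 and the macrophage gene Cd68 were higher and Kit was lower for the mean of the 3 media, and the other tested genes of those lists were not called. Of 5 CD4 T cell genes, 4 were lower and 1, Cd28, was higher in that comparison, where 31.8% of all genes were called. The summed signal of these 5 was 10320 to 11390 in Treg control and 7154 to 8201 in Treg acetate arrays. The part of these shifts in the results on the 10 genes was not tested.

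Across the 14 arrays the tested genes most like each of the 10 were found by Pearson correlation of normalized log2 values, as a description over arrays that share group, medium and normalization. Skil was most like Gpr83 (r = 0.97) and B4galt1 (0.96), Tgfbr1 most like Emb (0.96) and Ncoa3 (0.95), and Tgfbr2 most like Nipal1 (0.96) and Foxo1 (0.93). Tgif1 was most like Cyth1 (0.94) and Cdipt (0.94), Tgfbr3 most like Gm1673 (0.92) and 1110065P20Rik (0.91), and Smad3 most like 2310022B05Rik (0.94) and Polg (0.94). Smad7 was most like Stat5b (0.89) and Zfp36l2 (0.88), Smad2 most like Snord89 (0.90) and Tent4b (0.88), and Ski most like Sft2d3 (0.89) and Tnfrsf25 (0.89). Tgfb1 had the weakest likeness, to Wdr70 (0.84) and Ppp2cb (0.80). After group means were removed the correlation stayed at 0.91 for Smad7 with Stat5b and dropped to 0.72 for Skil with Gpr83.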

How the data were processed

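The 10 genes and the pathway lists were chosen with earlier results of these data known. Each probe set has, on every array, 1 deposited signal intensity that the authors computed with MAS5, according to the labels' processing notes. Which MAS5 version and scaling target were set is not given in the sources used here. Of 45101 probe sets 34945 carry 1 symbol in GEO's platform annotation, 932 several and 9224 none or are array controls; only the first were used. Values were taken as log2(signal + 3) and quantile-normalized, since deposited array medians ran from 9.01 to 16.3. The number of arrays limits the precision. Where a gene had several probe sets, the one brightest on average (log2 scale, 14 arrays) represented it, and tests covered the genes whose average reached the 40th percentile (log2 of 3.60). A log2 difference understates the change of low genes.

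One limma model (limma 3.58.1, R 4.3.3) covered all arrays, with 6 group means, 8 residual degrees of freedom and eBayes with trend. Differences are given ± SE, and p-values were adjusted by Benjamini-Hochberg over all tested genes. The named genes are all 10 members, up to 5 called genes of each list with the largest differences, and the 2 genes most correlated with each member. The script was tested on simulated data. Labels give no batch or scan date. Replicate numbers were not treated as pairs in the main fit. Correlations of same-numbered arrays' deviations were 0.153, 0.159 and -0.063 in Th17, 0.062 in Treg and -0.159 in Th1. With 2 arrays per group Treg and Th1 give only 1 value each, so these values cannot settle whether same-numbered arrays were paired. Alternatives were the signals as deposited, median scaling, a pseudocount of 1 or 16, no filter or the 60th percentile, probe sets averaged or singly, a replicate block and leaving out each array. No probe set was tested against background, as detection calls were not used here.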

Additional observations from a re-analysis of the deposited data

How the results depend on the processing

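Changing the pseudocount altered no call of the 10 genes. The scale between arrays moved many calls. The median difference over all genes, which was between -0.01 and 0.03 on the quantile scale, lay on signals as deposited at -0.29 (Th17), -0.13 (Treg) and 0.23 (Th1) for acetate, and at 0.62 (Th17 to Th1), 0.19 (Treg to Th1), 0.41 (Th17 to Treg) and 0.41 (both TGF-beta media to Th1) for untreated cultures. The split of all called genes, higher to lower, was 1274 to 946 for acetate in Th17 and 467 to 1461 as deposited (761 to 1371 with median scaling), 770 to 595 and 252 to 298 for Treg, 229 to 210 and 178 to 45 for Th1 (235 to 80), 1928 to 1544 and 1015 to 1288 for the acetate mean, 328 to 393 and 2906 to 119 for Th17 to Th1 (703 to 177), 312 to 234 and 204 to 62 for Treg to Th1, 581 to 656 and 1327 to 228 for Th17 against Treg (950 to 390), and 217 to 184 and 529 to 35 for both media (261 to 68).

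Of the 10 genes, on signals as deposited 2 were called for acetate in Th17, 1 in Treg, 8 for untreated Th17 against Th1, 4 for Th17 against Treg and 1 for the TGF-beta media with acetate. With median scaling the counts were 2 for acetate in Th17, 6 for Th17 to Th1 and 4 for Th17 against Treg, and the 60th percentile filter gave 2 for acetate in Th17. With probe sets averaged 0 were called for acetate in Th17, 1 each in Th17 and Treg against Th1, and 0 for untreated TGF-beta media, where dim probe sets enter. The replicate block gave 2 for acetate in Th17, 5 for the acetate mean, 3 for Treg against Th1 and 3 for untreated TGF-beta media, the last without Tgfbr1 (adjusted p 0.0642) and Tgif1 (0.105). A block with crossed Th1 numbers, chosen after seeing the data, called 0 for acetate in Th1 (749 genes in all, against 439 without a block), 2 for acetate in Th17 and 4 for the acetate mean.

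With each array left out, the counts ran from 0 to 2 for acetate in Th17, 1 to 2 in Treg, 0 to 0 in Th1 and 2 to 4 for the mean; from 2 to 4 for untreated Th17 to Th1, 2 to 5 for Treg to Th1, 0 to 2 for Th17 to Treg; from 2 to 6 for untreated and 1 to 4 for acetate TGF-beta media; and from 0 to 1 for the F test. A lone array left in a group was assumed to vary like the others.

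Among called differences of the 10 genes, the direction turned only with another probe set alone, most of them dim. Differences that were not called changed sign in other settings too, such as Tgfbr3 for acetate in Th1 (-0.40, and 0.77 with probe sets averaged). Those of Tgfbr1 gave -0.18 and -0.46 for Th17 against Th1, -0.61 for Treg to Th1, then -0.40 and -0.16 for both media. Those of Tgfbr2 gave -0.24 and -0.72, -0.67 and -0.46, and -0.45 and -0.59, and -0.091 with acetate. That of Tgfbr3 gave -0.18 for acetate in Th17, 0.24 for Treg against Th1 and 0.86 for both media, and that of Skil -0.080 for Treg against Th1. None of these passed, and the cause was not tested. Groups of 2 arrays limit the precision.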
